A study of Rattus norvegicus with 7 samples.

Results

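*Cyp11b2* encodes aldosterone synthase, and its read counts were examined in the adrenal gland of rats kept under long stress. It was 1 of 32754 genes in the count table and 1 of 13892 genes that were tested. The gene was found by its Ensembl identifier, ENSRNOG00000030111, which the study pairs with this symbol in its list of genes that changed in chronic variable stress (CVS). The contrast of CVS with Control therefore chose the gene, and its values in that contrast are given below as a description without a test. The rats were male Sprague-Dawley. Control rats were housed socially, 3 to a cage. CVS rats went through a changing series of stressors for 3 weeks, from postnatal day 28 to 49, among them predator threat, restraint, forced swim, cold and warm rooms, foot shock, isolation, and spells without food and water, and were otherwise housed 2 or 3 to a cage. Chronic shock (CS) rats spent the same 3 weeks alone in shuttle boxes with a barred metal floor, through which unpredictable foot shocks were delivered. The CS boxes stood in a separate room from the other groups. Single housing, the metal floor, the shock and the room cannot be told apart in CS, and foot shock was part of both protocols. Adrenal glands were taken on postnatal day 50 to 51. Each library was a pool of RNA from 8 to 9 animals, with 3 pools for Control, 2 for CVS and 2 for CS, so the spread between libraries is a spread between pools.

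Aldosterone synthase sits in the mitochondria of the zona glomerulosa, the outermost layer of the adrenal cortex. It carries out the last steps from deoxycorticosterone through corticosterone to aldosterone, the hormone that makes the kidney hold sodium and release potassium. Its transcription is driven mainly by angiotensin II and by extracellular potassium, through membrane depolarization, calcium entry and calmodulin-dependent kinases, with a weaker part for adrenocorticotropic hormone. The inner cortical layer, the zona fasciculata, uses a close relative, 11-beta-hydroxylase, to make corticosterone instead.

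Counts assigned to genes ranged from 20095746 to 32242123 per library. Library codes in the labels began with DM6 for Control 1, CVS 1 and CS 1, with DM8 for Control 2 and CVS 2, and with DM10 for Control 3 and CS 2, and what these prefixes stand for is not given in the sources used here. In the rat, *Cyp11b2* lies on chromosome 7 in a tandem cluster of related genes, after *Cyp11b1-ps1*, *Cyp11b2l1*, *Cyp11b1* and *Cyp11b3* in the RefSeq order of assembly GRCr8. The reads were single and 50 bases long, and how reads that fit several copies were counted is not given in the sources used here. The count of *Cyp11b2* may thus hold reads from its relatives, or lack some of its own. The other members of the cluster were not analysed here. The strand setting of the counting is likewise not given.

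*Cyp11b2* was counted in large numbers in every library, and its share of all counts was higher in each of the 4 stressed libraries than in any of the 3 controls. The control libraries held 56624, 46863 and 48964 reads of the gene. The CVS libraries held 82490 and 48771 reads, and the CS libraries held 74979 and 64200. Raw reads overlapped between CVS and Control, and CVS 2 was the shallowest library. As a share of all counts, *Cyp11b2* took 0.176% (95% exact Clopper-Pearson interval 0.174 to 0.177), 0.191% (0.189 to 0.193) and 0.207% (0.205 to 0.209) in Control 1, 2 and 3. The share was 0.265% (0.263 to 0.267) and 0.243% (0.241 to 0.245) in CVS 1 and 2, and 0.241% (0.240 to 0.243) and 0.241% (0.239 to 0.242) in CS 1 and 2. These intervals cover counting error only, and the 3 control intervals did not overlap each other, so that pools of one group differed by more than counting error.

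After TMM normalization, which corrects the library totals for differences in composition, all stressed libraries again stood above all controls. The level of *Cyp11b2* was 1679, 1925 and 2096 CPM (the gene's counts scaled to a common library total) in the control libraries, with a mean of 1900.0 ± 209.9 (SD, n = 3). It was 2594 and 2459 CPM in CVS, with a mean of 2526 ± 95.6 (SD, n = 2), and 2401 and 2519 CPM in CS, with a mean of 2460.0 ± 84.0 (SD, n = 2). The controls were the most spread group, and their highest library was 1.25 times the lowest. The lowest CVS library was 1.17 times the highest control, and 11.3% of the genes tested had both CVS libraries above all controls. The lowest CS library was 1.15 times the highest control. Both gaps to the highest control were smaller than the range among the controls themselves. The CVS and CS libraries interleaved, with CVS 1 highest and CS 1 lowest. All 4 stressed libraries stood above all 3 controls in 3.75% of the genes tested. RNA came from whole glands, so that more zona glomerulosa cells and more *Cyp11b2* RNA per cell cannot be told apart.

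**Figure D1:**
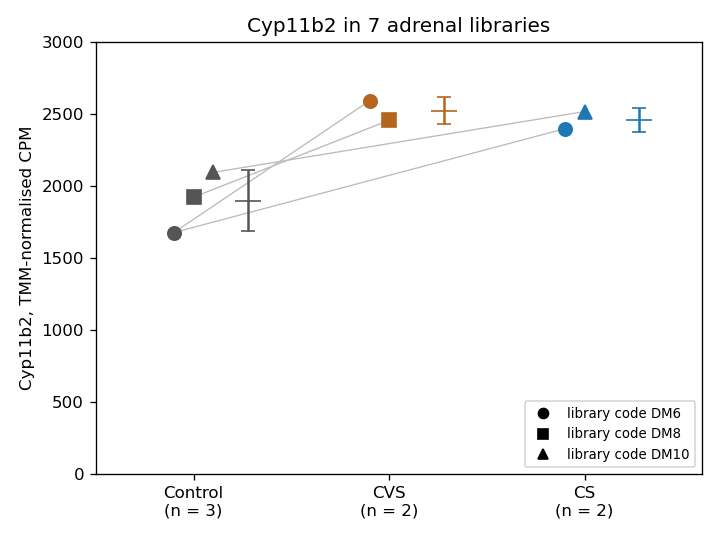
TMM-normalised CPM of *Cyp11b2* (vertical axis, from 0) in each library by group, with marker shapes for the library code prefix and bars for the group mean ± SD. The control libraries sit between 1679 and 2096 CPM and the 4 stressed libraries between 2401 and 2594.

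The comparison of CS with Control asked whether *Cyp11b2* also differed under the stress protocol that did not choose it. Its level was higher in CS by 0.37 on the log2 scale (SE 0.11, 95% interval 0.12 to 0.63), a fold of 1.29 (1.09 to 1.54). This did not pass the threshold of 0.05 over all genes, with an adjusted p of 0.358 (edgeR's quasi-likelihood F-test, Benjamini-Hochberg adjusted). The same test called 29 genes, 0.209% of those tested, and 0.151% as higher. The unadjusted p of *Cyp11b2* in edgeR's test was 0.00957, and 8.44% of all genes had one under 0.05. CS and Control did not overlap for *Cyp11b2*, with both CS libraries above all controls, as held for 12.9% of the genes tested. The control libraries are those of the contrast that chose the gene, so CS is not independent of that choice.

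With the replicate number as a block, the call of *Cyp11b2* in CS changed. Control 3, the highest control, is the only library of its number, so that fit matches it exactly and it adds nothing to the difference. The difference was then 0.45 on the log2 scale (SE 0.056), with an adjusted p of 0.00314 in edgeR's quasi-likelihood F-test, Benjamini-Hochberg adjusted. That fit had 1 residual degree of freedom and called 418 genes (3.01% of those tested). With the library code prefix as the block, the difference was 0.39 and the adjusted p 0.00953, in a fit that called 527 genes (3.79%). There Control 2, the only DM8 library of these groups, adds nothing to the difference. DESeq2's Wald test without a block gave a log2 difference of 0.37 and an adjusted p of 0.0963, and called 191 genes (1.37%). The size of the *Cyp11b2* difference in CS was thus similar in these 4 fits. Its place against the threshold followed the model, and the fits with a block did not draw on all controls.

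In CVS, *Cyp11b2* was higher than in Control by 0.41 on the log2 scale (SE 0.11), a fold of 1.33. It was 0.49 higher with a block. Replicate number and code prefix sort these libraries alike, so they are 1 block here, and Control 3 adds nothing to that difference. These values come from the contrast that chose the gene and are a description. They stand beside 13 genes called in CVS by edgeR (0.0936% of those tested), and nothing about *Cyp11b2* is read from that count.

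*Cyp11b2* did not pass the test between the stress protocols. It was lower in CS than in CVS by a log2 difference of −0.04 (SE 0.10, 95% interval −0.29 to 0.20), a fold of 0.972 (0.821 to 1.15), with an adjusted p of 0.927 (edgeR's quasi-likelihood F-test, Benjamini-Hochberg adjusted, threshold 0.1). The CVS libraries are those that chose the gene, so the choice enters this comparison and favours a higher level in CVS. With 2 libraries a group, the interval does not show that the protocols left equal levels. The same test called 0 genes (0.0%), with 1020 (7.34%) at an unadjusted p under 0.05, and DESeq2 called 45 (0.324%).

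Within libraries of one code prefix, *Cyp11b2* was higher in each stressed library than in its control. Every stressed library stood above every control, so any such pairing gives this direction, and only the sizes are described. The CVS values come from the contrast that chose the gene. CVS 1 exceeded Control 1 by 0.63 on the log2 scale, and CS 1 exceeded it by 0.52, all under DM6. CVS 2 exceeded Control 2 by 0.35 under DM8, and CS 2 exceeded Control 3 by 0.27 under DM10. The 2 differences under DM6 were the largest of these 4, and Control 1 was the lowest control. Between the protocols, CS 1 was below CVS 1 by a log2 difference of −0.11 under DM6, which is the only prefix with both. By replicate number, CS 2 was above CVS 2 by 0.035, so the direction differed.

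Leaving out libraries moved the size of the difference most through Control 1 and Control 3. Without Control 1, *Cyp11b2* was higher in CS by 0.29 and in CVS by 0.33 on the log2 scale. Without Control 3, the differences were 0.45 in CS and 0.48 in CVS. The adjusted p for CS was between 0.422 and 0.989 over the 5 fits with a library left out (edgeR's quasi-likelihood F-test, Benjamini-Hochberg adjusted). In all of these fits *Cyp11b2* stayed higher in the stressed group, which follows from every stressed library standing above every control.

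**Figure D2:**
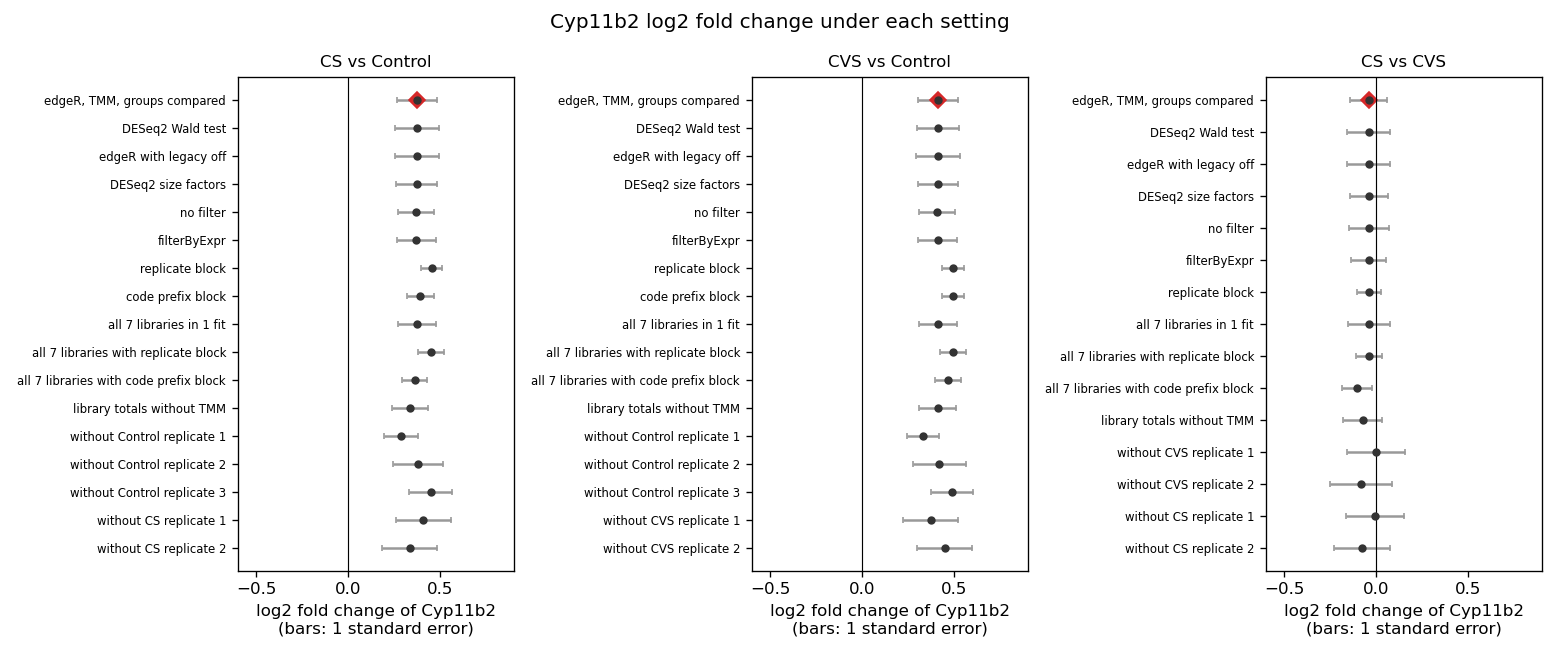
Log2 fold change of *Cyp11b2* (horizontal axis) with 1 standard error (bars) in the 3 comparisons under each model, filter, scaling and set of libraries, with the reported fit marked in red. CS against Control lies between 0.29 and 0.45, CVS against Control between 0.33 and 0.49, and CS against CVS between −0.10 and −0.00089.

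Against all genes, the differences of *Cyp11b2* from Control were toward the upper end and not extreme. In CS, 858 genes (6.18% of those tested) had a log2 fold change at or above that of *Cyp11b2*, and the 95th percentile was 0.42. In CVS, 501 genes (3.61%) did, with a 95th percentile of 0.35. The median over all genes, which TMM brings near 0, was 0.0053 in CS and 0.0016 in CVS. With library totals in place of TMM it was −0.035 in CS and −0.0046 in CVS. Between CS and CVS, 58.8% of genes had a log2 fold change at or above that of *Cyp11b2*.

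**Figure D3:**
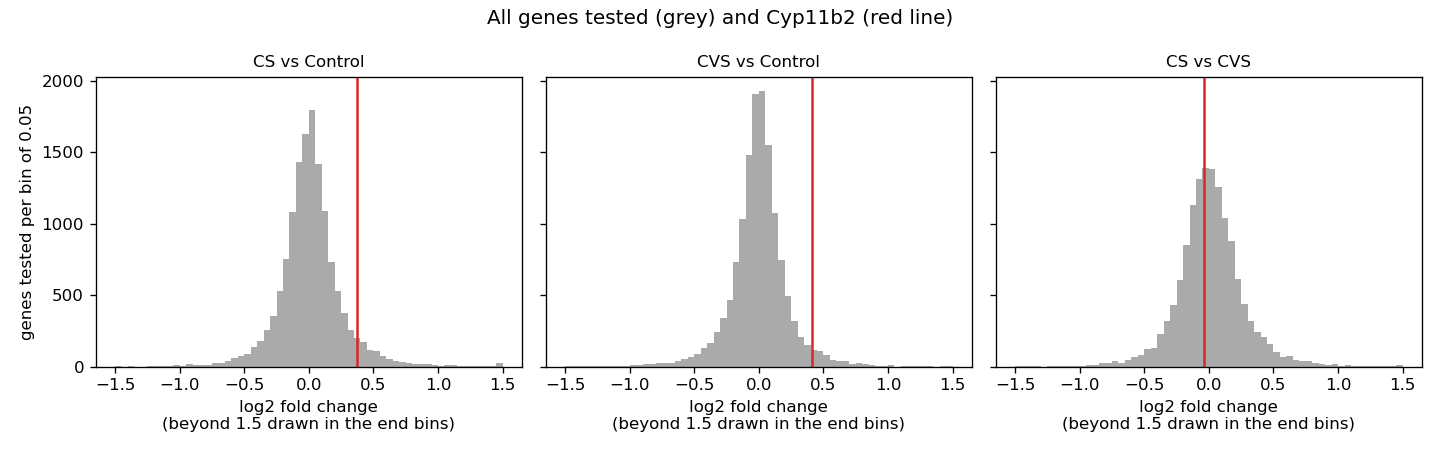
Number of tested genes (vertical axis) per bin of log2 fold change (horizontal axis) in the 3 comparisons, with *Cyp11b2* as a red line. *Cyp11b2* stands at 0.37 in CS, 0.41 in CVS and −0.04 in CS against CVS.

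The steps before and around aldosterone synthase could be followed only in part, because gene symbols came from the study's lists of changed genes. Of 69 genes listed for steroid enzymes, cholesterol supply and the control of aldosterone, 3 had a name: *Scarb1*, *Nr0b1* and *Plcb4*. None of the 17 steroid enzymes was among them, so the route from cholesterol to the substrate of *Cyp11b2* was not analysed here. The study chose these 3 genes for a change on the same libraries, *Scarb1* in CS, *Nr0b1* in CVS and *Plcb4* in both. Their directions are thus not independent evidence. Calls above the share of all genes, and medians away from that of all genes, follow from how they were named. These values are a description and say nothing about the listed genes without a name. In edgeR's quasi-likelihood test, 0 of the 3 were called in CS, in CVS or between the protocols. At an unadjusted p under 0.05 there were 3 in CS (1 higher, 2 lower), 2 in CVS (both lower, where 6.45% of all genes had such a p) and 1 between the protocols (higher in CS). DESeq2 called 2, 2 and 0 of them, where it called 0.893% of all genes in CVS. The median log2 fold change of the 3 was −0.36 in CS, −0.33 in CVS and 0.28 between the protocols, against 0.0053, 0.0016 and 0.0023 over all genes.

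*Scarb1* encodes the receptor that takes up cholesterol ester from high-density lipoprotein, the main source of steroid substrate in the rodent adrenal. Its level was 2391, 2622 and 2879 CPM in Control, 3719 and 2741 in CVS, and 3876 and 3982 in CS. The CS libraries stood above all controls, whereas CVS 2 lay within the control range. The log2 difference in CS was 0.58 (SE 0.10) and 0.65 with the replicate block. The study listed the gene in that contrast, so no test is given there. In CVS the difference was 0.30 (SE 0.14, adjusted p 0.808 in edgeR's test). The replicate block, which called 5.88% of all genes in CVS, gave an adjusted p of 3.54e-07 in edgeR's test, in a fit where Control 3 adds nothing to the difference. Without CVS 1 it was 0.059.

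*Nr0b1* encodes DAX1, a nuclear receptor that represses steroidogenic transcription. Its level was 29.1, 35.0 and 31.2 CPM in Control, 20.0 and 18.4 in CVS, and 23.1 and 26.5 in CS. All 4 stressed libraries were below all 3 controls, as in 3.62% of the genes tested, and the reverse of *Cyp11b2*. The log2 difference was −0.72 in CVS (SE 0.11), where the study listed the gene, so no test is given there. In CS it was −0.36 (SE 0.12, adjusted p 0.433 in edgeR's test, and 0.0674 with the replicate block).

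*Plcb4* encodes a phospholipase C beta, an enzyme that splits membrane phosphoinositide downstream of Gq-coupled receptors. The angiotensin II receptor of zona glomerulosa cells is one such receptor. The level of *Plcb4* was 152.5, 159 and 148.5 CPM in Control, 121.8 and 121.5 in CVS, and 106 and 104.7 in CS. All 4 stressed libraries were again below the controls, as in 3.62% of the genes tested. Both CS libraries lay below both CVS libraries, whereas for *Cyp11b2* CVS and CS interleaved. With 2 libraries a group, CS and CVS did not overlap, in either direction, for 40.1% of the genes tested, so nothing is read from this contrast. The log2 difference was −0.54 in CS (SE 0.08) and −0.33 in CVS (SE 0.08). The study listed the gene in both contrasts, so no test is given.

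Another 4 named genes, which act in Wnt signalling, were picked from the study's lists of changed genes after their values had been seen, so they are single genes and nothing is read from them about the pathway. *Wnt5a*, a secreted Wnt ligand, was at 55.9, 58.9 and 59.9 CPM in Control, 80.3 and 73.8 in CVS, and 75.0 and 67.4 in CS. *Fzd6*, a Wnt receptor, was at 66.7, 59.0 and 61.7 CPM in Control, 90.1 and 82.7 in CVS, and 86.5 and 79.7 in CS. *Wls*, which carries Wnt ligands to the cell surface, was at 378, 378 and 386 CPM in Control, 452 and 478 in CVS, and 399 and 391 in CS. *Nkd1*, an inhibitor of the pathway, was at 48.5, 46.2 and 47.2 CPM in Control, 43.0 and 41.4 in CVS, and 37.6 and 35.2 in CS. *Wnt5a*, *Fzd6* and *Wls* were above all controls in all 4 stressed libraries, as were 3.75% of the genes tested, and *Nkd1* was below all controls in all 4, as were 3.62%. In the contrasts that did not choose them, none of the 4 passed the threshold in edgeR's quasi-likelihood F-test, Benjamini-Hochberg adjusted. That test called 0.209% of all genes in CS, 0.0936% in CVS and 0.0% between the protocols. The study listed *Wnt5a* and *Wls* in CVS, *Nkd1* in CS and *Fzd6* in both, so no p is given in those contrasts. In the others, the adjusted p from that test was 0.377 for *Wnt5a* and 0.924 for *Wls* in CS, and 0.816 for *Nkd1* in CVS. With the replicate block, *Wls* passed between the protocols (adjusted p 0.0727, threshold 0.1, where 6.07% of all genes did). The CVS libraries that chose *Wls* enter that comparison.

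**Figure D4:**
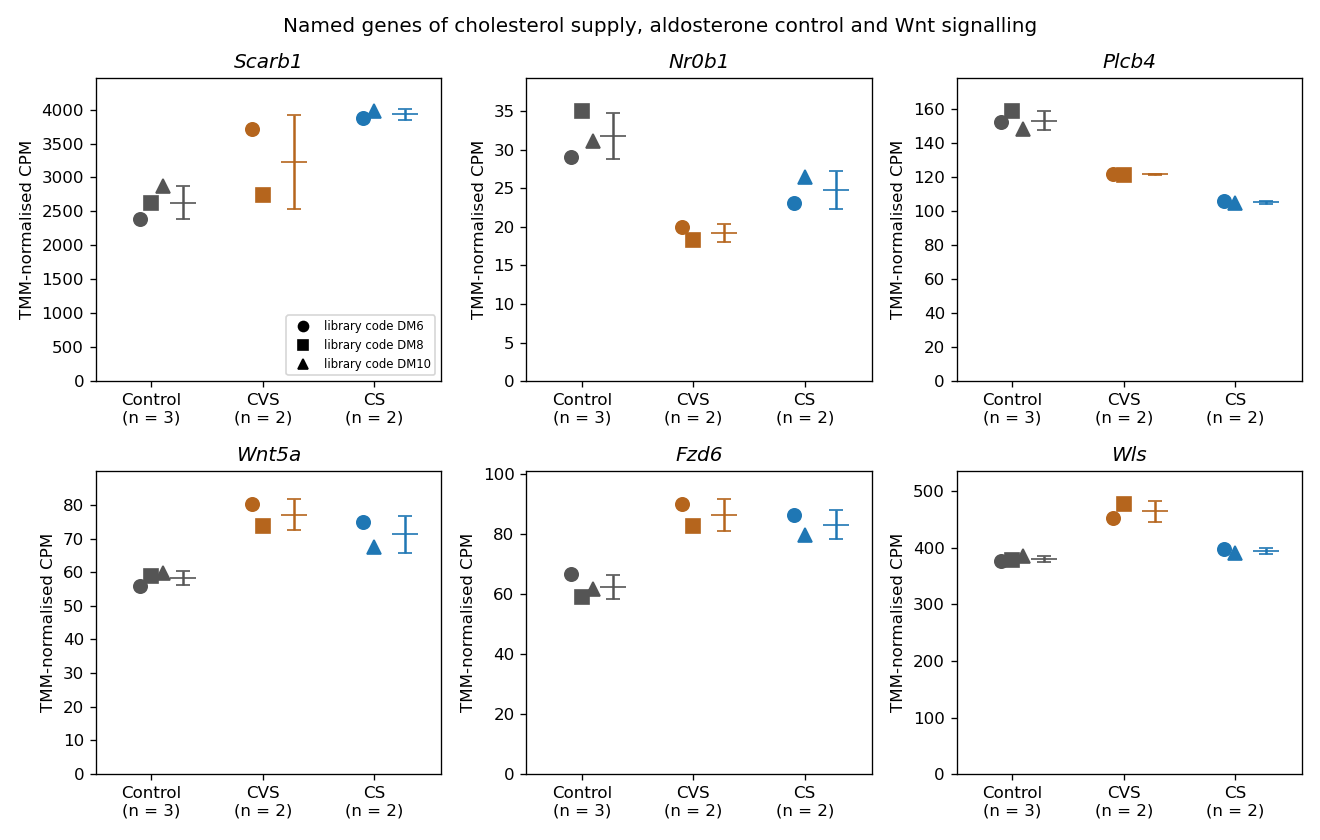
TMM-normalised CPM (vertical axes, from 0) of *Scarb1*, *Nr0b1*, *Plcb4*, *Wnt5a*, *Fzd6* and *Wls* in each library by group, with marker shapes for the library code prefix and bars for the group mean ± SD. *Nr0b1* and *Plcb4* are lower in all 4 stressed libraries than in the controls, while *Wnt5a*, *Fzd6* and *Wls* are higher.

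Other cell types could be followed through few named markers. Of 17 markers listed for the zona glomerulosa besides *Cyp11b2*, 0 had a name, so the layer that expresses the gene could not be checked through its other markers. Adipocyte markers were named for 7 of 10 genes (*Adipoq*, *Plin1*, *Retn*, *Cidec*, *Fabp4*, *Cfd* and *Car3*), and their summed level was 61.0 to 95.9 CPM in Control, 126 to 135 in CVS and 182 to 196 in CS. This sum was higher in all stressed libraries than in all controls, and CS lay above CVS. Of the single genes tested, 3.75% had the first pattern and 20.5% had both CS libraries above both CVS libraries. The study listed all 7 as changed in CS, so a difference of their sum follows in part from the naming, and markers without a name could not enter. *Car3*, a carbonic anhydrase, was its largest part, at 28.4 to 45.8 CPM in Control, 68.0 to 73.6 in CVS and 92.8 to 93.0 in CS. *Cfd*, which encodes the complement protease adipsin, overlapped between CVS and Control, at 8.15, 5.83 and 7.41 CPM in Control and 6.67 and 8.82 in CVS. Chromaffin markers were named for 2 of 15 genes (*Chgb* and *Slc6a2*), with a summed level of 1129 to 1271 CPM in Control, 1071 to 1213 in CVS and 1526 to 1595 in CS. *Chgb*, which encodes a protein of secretory granules, made up nearly all of this sum. *Slc6a2*, the noradrenaline transporter, ran the other way, at 35.3, 37.5 and 37.8 CPM in Control, 18.4 and 21.9 in CVS, and 29.1 and 25.4 in CS, with all 4 stressed libraries below all controls. The 2 chromaffin markers thus did not move together. They too were named because the study listed them, *Chgb* in CS and *Slc6a2* in both contrasts. All 4 stressed libraries were below all controls in 3.62% of the genes tested. Of the markers listed for capsule (10), blood (9) and endothelium (6), 0 had a name. The part of other cell types in the *Cyp11b2* values was not tested.

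The named genes whose pattern was most like that of *Cyp11b2* were found by Pearson's r of log2 CPM over the 7 libraries, among 274 other named genes. These genes were chosen by the study for a change under stress in the same libraries, so a high or low r is given as a description only, and the group difference enters it. *Vash2*, which encodes a vasohibin, a tubulin carboxypeptidase, had the highest r, 0.975, which was also the highest over all 13891 other tested genes. It was at 59.4, 65.2 and 70.0 CPM in Control, 98.6 and 96.8 in CVS, and 85.7 and 92.3 in CS. *Vash2* and *Cyp11b2* shared the order of the controls, with Control 1 lowest and Control 3 highest, and both were highest in CVS 1. Next came *Dclk1*, a microtubule-linked kinase (r = 0.954), *Cd200*, a cell surface glycoprotein (0.936), *Thrsp*, a regulator of fatty acid synthesis (0.920), and *Sptssb*, a small subunit of serine palmitoyltransferase (0.908). Over all genes, 47 had an r at or above that of *Sptssb*. After each library was centred on its code prefix, which leaves the difference between stress and Control in, r lay between 0.946 and 0.984 for these 5 genes. Spearman's rho was 0.964 for *Vash2*, 0.821 for *Cd200* and *Thrsp*, 0.75 for *Dclk1* and 0.714 for *Sptssb*. *Sptssb* was at a low level, with 0.356 CPM in Control 1.

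At the opposite end, *Hoga1*, a mitochondrial enzyme of hydroxyproline breakdown, had the lowest r among the named genes, −0.974, while the lowest over all other tested genes was −0.989. Its level was 72.0, 65.0 and 58.7 CPM in Control, 35.1 and 37.6 in CVS, and 42.8 and 38.4 in CS, lowest in CVS 1 where *Cyp11b2* was highest. *Gm14569* followed (r = −0.970), and its order over the 7 libraries was the exact reverse of *Cyp11b2* (Spearman's rho −1.0). *Cyp27a1* encodes sterol 27-hydroxylase, a mitochondrial enzyme that turns cholesterol to oxysterols (r = −0.969). It was at 195, 181 and 156 CPM in Control, 116 and 132 in CVS, and 129 and 110.3 in CS. *Large*, a glycosyltransferase of dystroglycan (−0.958), and *Rprm*, an inhibitor of the cell cycle (−0.957), completed the 5 lowest. Spearman's rho was −0.964 for *Hoga1*, −0.929 for *Cyp27a1*, −0.857 for *Rprm* and −0.643 for *Large*. Over all genes, 21 had an r at or below that of *Rprm*.

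**Figure D5:**
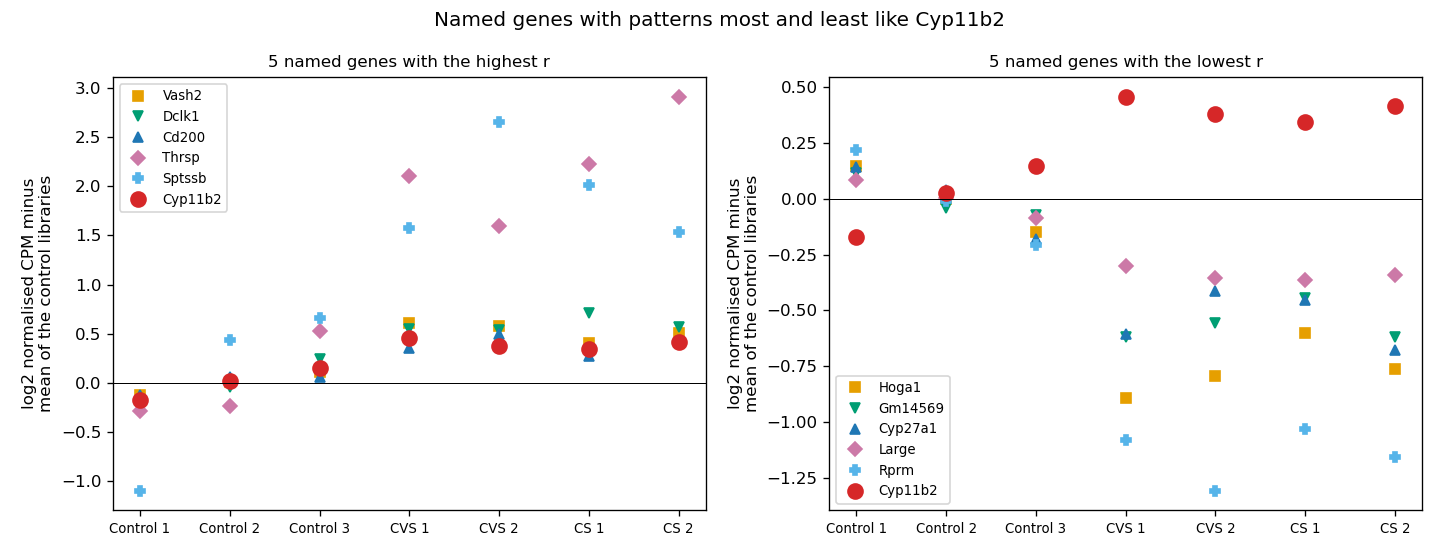
Log2 TMM-normalised CPM minus the mean of the 3 control libraries (vertical axes) in each of the 7 libraries (horizontal axes) for *Cyp11b2* (red) and the 5 named genes with the highest (left) and lowest (right) Pearson's r. *Vash2* (r = 0.975) lies near *Cyp11b2* in each library, and *Hoga1* (r = −0.974) mirrors it with larger differences.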

How the data were processed

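Reads from poly(A) RNA of 7 adrenal libraries (directional kit, single reads of 50 bases) were mapped by the authors to Rnor_6.0 with Rsubread and counted per Ensembl gene with featureCounts. The deposited values are raw counts, not normalized, and 9704 of 32754 genes were at 0 in every library. The study's symbols named 276 genes, of which all were in the table. The annotation release is not given in the sources used here.

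From the counts, the 13892 genes that reached 10 counts in each of the 7 libraries were tested with edgeR 4.0.16 (limma 3.58.1, R 4.3.3), using TMM, estimateDisp, glmQLFit and glmQLFTest on the libraries compared, with Benjamini-Hochberg adjustment over all genes tested. Thresholds were an adjusted p of 0.05, or 0.1 for CS against CVS. P-values measure the spread between pools. DESeq2 1.42.0, the study's tool, was the alternative test. The other alternatives were the legacy calculation off, DESeq2's size factors, no filter, filterByExpr, a block for replicate number or code prefix, all 7 libraries in 1 fit, and each library left out. Pearson's r used log2 CPM with 0.5 counts added. Other values and figures used Python 3.11.15, numpy 2.4.6, pandas 2.3.3, scipy 1.17.1 and matplotlib 3.10.9.

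The gene, the lists and the tests were chosen with earlier results of these data known. Genes were named where they belonged to a pathway list and were direct steps of the route or had an unadjusted p under 0.05 in a comparison, or where they were among the 5 highest or 5 lowest r. The 4 Wnt genes were named after their values were seen.

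The reported fits have no block, and the replicate number enters only as an alternative. Across genes, the departures of libraries with one number from the group means had correlations of 0.212 to 0.465 in the 6 pairs, and that fit was therefore read as a paired one. Such departures mirror each other where a group has 2 libraries, so the pairs are not independent. CS 2 carries the prefix of Control 3, not of Control 2. Tested on simulated counts for 13892 genes with 200 changed by a log2 fold change of 1, the share of changed genes that edgeR found was 0.805 in CS against Control (share of false calls 0.0694), 0.745 in CVS against Control (0.0970) and 0.825 in CS against CVS (0.167).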

Additional observations from a re-analysis of the deposited data

How the results depend on the processing

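*Cyp11b2* stayed higher than Control in CS and in CVS under every alternative, which follows from every stressed library standing above every control. Between CS and CVS the log2 difference lay between −0.10 and −0.00089, and no direction is read from it. In CS against Control *Cyp11b2* passed the threshold only with a block. The log2 difference was then 0.45 with the replicate block and 0.39 with the code prefix block. It was 0.45 and 0.36 with these blocks in a fit of all 7 libraries. Control 3 adds nothing to the difference with the replicate block, nor does Control 2 with the prefix block unless CVS is in the fit. In the other 7 of 11 alternatives besides leaving out a library it did not pass. The adjusted p ranged from 0.00314 to 0.407 over the 11 (edgeR's quasi-likelihood or DESeq2's Wald test, Benjamini-Hochberg adjustment). Leaving out 1 library gave 0.29 to 0.45. The replicate block changed no call of *Cyp11b2* between CS and CVS (−0.04, adjusted p 0.789). The prefix block could not be fitted there, as it leaves no residual degree of freedom. The fits of all 7 libraries with a block, and library totals in place of TMM, were chosen after seeing the data.

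The number of genes called in CS was 191 with DESeq2, 232 with no filter, 418 and 527 with the replicate and prefix blocks, and 361 and 580 with these blocks over all 7 libraries. In CVS it was 124 with DESeq2, 6 with the legacy calculation off, 7 with DESeq2's size factors, 151 with no filter, 8 with filterByExpr, 817 with the block (replicate and prefix are the same block there), 122 and 257 with the blocks over all 7 libraries, and 8 with library totals. Between CS and CVS it was 45 with DESeq2, 391 with no filter, 843 with the replicate block, and 520 and 287 with the blocks over all 7 libraries. Leaving out 1 library gave 1 to 83 genes in CS (1, 4 and 1 without Control 1, 2 and 3, 83 without CS 1 and 4 without CS 2), 0 to 16 in CVS (7, 6 and 0 without Control 1, 2 and 3, 1 without CVS 1) and 0 to 86 between the protocols (86 without CS 1).

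Of the 3 named pathway genes, 2 were called in CS with DESeq2, no filter, either block, and either block over all 7 libraries, and 1 with the legacy calculation off or with all 7 libraries in 1 fit. In CVS, 2 were called with DESeq2 and with either block over all 7 libraries, 1 with no filter, and 3 with the block, which is the same for replicate and prefix there. The study had listed each of these genes as changed, so these counts are a description. Leaving out 1 library gave 0 in each comparison. *Fzd6* between CS and CVS changed sign without CVS 1, to 0.0055 on the log2 scale, within a range of −0.12 to 0.0055 over the 4 fits. For the 7 named pathway and Wnt genes, 54 further values passed the threshold where the reported fit did not. Only values with the sign of the reported fit were counted there, so their direction shows nothing. The count includes contrasts that chose these genes, and the alternatives also differed in how many of all genes they called, as given above. Nothing is read from it. The cause of the differences between fits was not tested. With 2 or 3 pools a group and 1 residual degree of freedom in a blocked fit, the number of libraries and not the depth (at least 46863 reads of *Cyp11b2* a library) limits the precision.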
